A study of Drosophila melanogaster with 10 samples.

Results

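The 39 genes described here encode digestive enzymes of Drosophila melanogaster and their close relatives, out of 11982 genes with a probe set of their own on the arrays. The rule took them by symbol, with no measured value, but it was chosen with earlier results of these data known. They are 13 Jonah proteases (symbols starting with Jon), 9 trypsins (symbols ending in Try), 10 maltases (Mal-A1 to Mal-A8, Mal-B1 and Mal-B2), 4 mannosidases (LManI to LManIV) and 3 lipases (Lip3, Lip4 and mag). Each gene had 1 probe set. The amylase genes Amy-p and Amy-d share a probe set, which stays outside the 39 and is described with the carbohydrases.

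Most of these families are known for enzymes that midgut cells secrete into the gut lumen. Jonah proteases are chymotrypsin-like and trypsins cut after basic residues, and both belong to the serine proteases. Amylase cuts starch and glycogen into maltose, which maltases (alpha-glucosidases) split into glucose. Lysosomal-type alpha-mannosidases trim sugars from glycoproteins, and mag (magro) is a lipase of the midgut that acts on dietary fat.

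RNA came from heads of yw flies, a strain carrying mutations of the pigment genes yellow and white. All groups share this strain, the labels call every sample a control, and they name no other allele or agent. The groups are times of day in hours of zeitgeber time (ZT): ZT3 (3 arrays), ZT7 (1), ZT11 (1), ZT15 (3), ZT19 (1) and ZT23 (1). The labels state neither fly age and sex, nor the number of heads pooled, the light schedule or whether replicates came from separate cultures. A p-value here therefore covers only the spread among these samples, and that spread may be technical. Values at the times with 1 array have no replicate error, and the number of arrays limits the precision.

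Levels are natural logs of the deposited intensities, likely equal to GCRMA log2 values, so that 1 unit is a 2-fold difference. Were they plain intensities instead, differences given here would have to be multiplied by 1.44 to be in log2 units. A level of 6 or above is called present.

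Clustering of the probe sets that are no members divided the arrays into a set of 4 (ZT15 replicates 2 and 3, ZT3 replicates 1 and 2) and a set of 6 (ZT3 replicate 3, ZT7, ZT11, ZT15 replicate 1, ZT19 and ZT23). The sets are described here and not tested, since they were drawn from these data. Several tissue marker lists differed between them. All 12 testis genes were at lower levels on the set of 4, with array medians of 3.83 to 6.06 on the set of 4 and 11.12 to 12.20 on the set of 6, and 5 of the 12 were below 6 on every array of the set of 4. Of 11 accessory gland genes 10 were lower on the set of 4, with medians of 3.53 to 3.84 and of 11.92 to 13.36, and the same 10 were below 6 on every array of the set of 4. Of 3 Malpighian tubule genes, all lower on the set of 4, medians were 5.01 to 5.79 and 7.55 to 8.95. This median is the level of ZnT35C on every array. Irk3 differed by -0.32 with overlapping sets, and NaPi-T, which differed by -1.12, was below 6 on every array. The 5 measured photoreceptor genes were present on every array, with medians of 13.54 to 13.92 and 13.57 to 14.26. Of the 5, 4 were higher on the set of 4, and trp, whose level is the median on every array, was lower. All 4 neuron genes were lower on the set of 4, with medians of 8.30 to 8.64 and 9.20 to 10.10. The sets overlapped for elav (-0.26) and nSyb (-0.28) and did not for brp (-1.60) and para (-1.83). The medians of 4 flight muscle genes were 6.78 to 7.72 and 5.73 to 11.77. All 7 fat body genes were higher on the set of 4, by a median of 0.23, beside 0.18 over all tested probe sets. The sets did not overlap for 4 of the 7, among them Fbp1, which was below 6 on every array. Of all tested probe sets 33.3% were higher on the set of 4 without overlap. Lsp2, a larval serum protein gene, averaged 12.84 ± 0.73 (SD, n = 4) and 9.44 ± 0.89 (SD, n = 6). Of 11 ovary genes all were below 6 on every array of the set of 4, and the list's median was 3.71 to 3.96 on 5 arrays of the set of 6 and 7.34 at ZT11; Cp15, an eggshell gene, was at 12.29 on ZT3 replicate 3. The midgut gene mex1 was present on every array. How far the other tissues' RNA takes part in the levels below was not tested. Fewer cells of a type and less RNA per cell cannot be told apart in such samples.

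Digestive enzyme transcripts were detected in all head samples. Of the 39 genes, 26 were present on every array, 10 were present on some arrays and not on others, and 3 were below 6 on every array. Among the 36 with a mean level of at least 4, that is 72.2% present on every array, beside 65.0% of all 12991 probe sets with such a mean. The 26 comprised 9 Jonah proteases, 6 trypsins, 7 maltases, LManI, LManII, Lip4 and mag. The 10 comprised 3 Jonah proteases, 3 trypsins, 3 maltases and LManIII. The 3 below 6 were Jon66Cii, LManIV and Lip3, with highest levels of 3.29, 3.04 and 2.82.

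Among the members near the level of 6, the lowest array stood at 6.30 for Jon65Ai, 6.52 for mag and 6.64 for Mal-B1, all counted as present. It stood at 5.95 for Mal-A2 and 5.93 for etaTry, which were counted as varying. On the set of 6 alone 35 genes were present on every array and Jon66Ci was the 1 that varied. On the set of 4 alone the counts were 26 and 10.

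**Figure D1:**
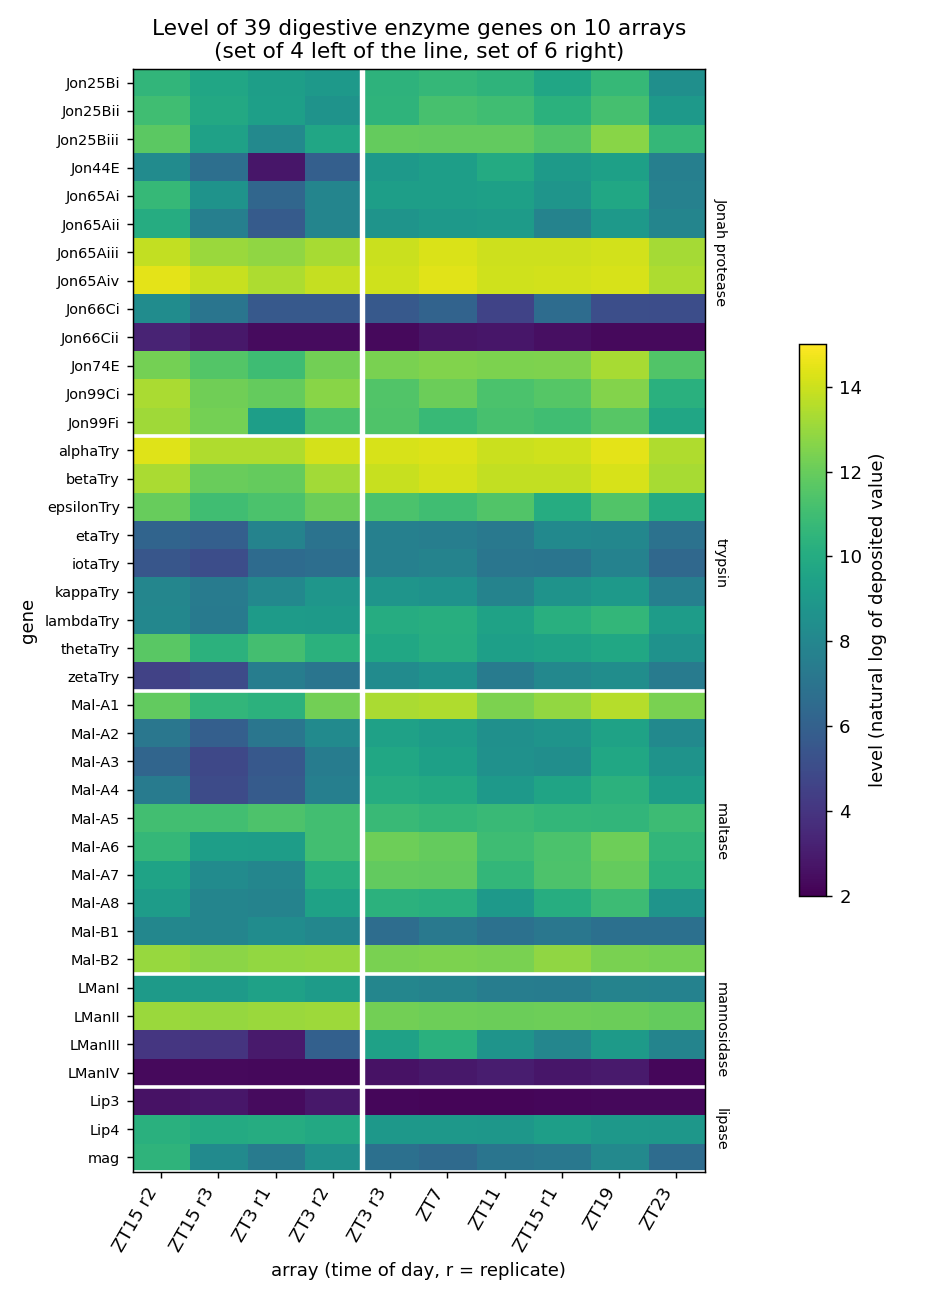
Level (natural log of the deposited value, colour) of the 39 genes in rows on the 10 arrays in columns, with the set of 4 left of the white line and the set of 6 right of it. Jon65Aiii, Jon65Aiv and alphaTry are at 12.85 or above on every array. LManIII, Mal-A3 and Mal-A4 are darker on every array of the set of 4 than on any of the set of 6. Jon44E is darkest on ZT3 replicate 1 (2.77), but its sets overlap, with 8.27 on ZT15 replicate 2 and 7.61 at ZT23.

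The members varied more between arrays than most probe sets. Of 12991 probe sets with a mean level of at least 4, 36 belonged to members; Jon66Cii, LManIV and Lip3 were not tested. The median range, highest minus lowest of the 10 arrays, was 2.96 for the 36 and 1.09 for all 12991, and the range exceeded 2 for 26 of the 36 and for 21.9% of all. Within the set of 4 the median range was 1.75 for the members and 0.40 for all, and within the set of 6 it was 1.41 and 0.58. Members that pass the mean filter only through arrays where they are high had to vary, so these medians describe the tested members alone.

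Presence on every array did not mean a steady level. Of the 26 genes present on every array, 10 had a range of at most 2 and 16 a range over 2. The 10 were Mal-B2 (0.73), Mal-A5 (0.79), alphaTry (1.03), Jon65Aiv (1.06), LManII (1.19), Lip4 (1.39), Jon65Aiii (1.39), kappaTry (1.59), Mal-B1 (1.66) and LManI (1.98). With every array centred on its median, 9 of the 26 had a range of at most 2: Lip4 (2.02), Mal-B1 (2.26) and LManI (2.56) were then above it and betaTry (1.66) and Jon74E (1.79) below it, and the range of Mal-B2 was 1.34, of Mal-A5 1.40 and of Jon65Aiv 1.67. Ranges were widest for LManIII (7.32), Jon44E (7.17), Mal-A4 (5.40) and Mal-A3 (4.92), all of which varied across the level of 6.

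**Figure D2:**
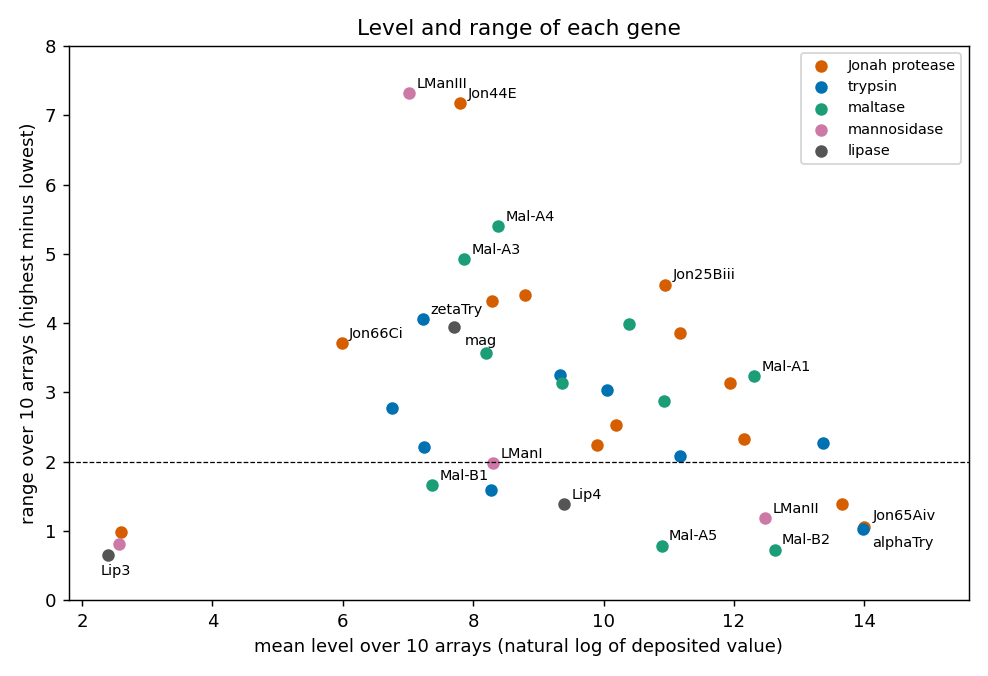
Mean level over the 10 arrays (x axis, natural log of the deposited value) against the range over the same arrays (y axis), 1 point per gene, coloured by enzyme family, with a dashed line at a range of 2. LManIII and Jon44E lie at the top with ranges of 7.32 and 7.17, and Mal-A5 and Mal-B2 at the bottom right with 0.79 and 0.73.

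The array sets differed in opposite directions for different genes. The difference, set of 4 minus set of 6, had a median of -0.68 over the 36 tested members and 0.18 over all tested probe sets. Over all 12991 tested probe sets it was below 0 for 5157. It was below 0 for 24 members and above 0 for 12: 9 and 3 Jonah proteases, 7 and 2 trypsins, 7 and 3 maltases, 1 and 2 mannosidases, and 0 and 2 lipases. With every array centred on its median, which moves the median of all tested probe sets by 0.63, the split was 20 below and 16 above, and Jon25Bi, Jon65Aiv, alphaTry and kappaTry were then above 0. The sets did not overlap for 6 members lower on the set of 4 (lambdaTry, Mal-A1, Mal-A3, Mal-A4, Mal-A7 and LManIII), where 22.0% of all tested probe sets did so. They did not overlap for 6 members higher on the set of 4 (thetaTry, Mal-A5, Mal-B1, LManI, LManII and Lip4), against 33.3% of all. Both counts are 16.7% of the 36 members, below the share of all probe sets. They depend on the scaling: after median centring 3 members were apart lower and 8 apart higher, and after quantile normalization 7 and 6.

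The Jonah proteases lie mostly in small gene clusters: Jon25Bi to Jon25Biii, Jon65Ai to Jon65Aiv, and Jon66Ci with Jon66Cii are neighbours with no other coding gene between them in the Release 6 assembly. Jon65Aiv was at 14.45 and 13.92 on ZT15 replicates 2 and 3 and at 13.41 and 13.88 on ZT3 replicates 1 and 2. On the set of 6 it was at 14.05, 14.43, 14.05, 14.11, 14.22 and 13.39 from ZT3 to ZT23. Its neighbour Jon65Aiii lay between 12.85 and 14.25. Both had ranges under 2, whereas the adjacent Jon65Ai and Jon65Aii had ranges of 4.40 and 4.32.

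Jon65Ai was at 10.70 and 8.70 on ZT15 replicates 2 and 3, at 6.30 and 7.94 on ZT3 replicates 1 and 2, and between 7.72 and 9.74 on the set of 6. Jon65Aii was at 10.03 and 7.63, at 5.72 and 7.93, and between 7.79 and 9.13 in the same order. Both were thus highest on ZT15 replicate 2 and lowest on ZT3 replicate 1. Probe sets of such close relatives can bind each other's transcripts, so their levels are not fully separate.

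Jon44E, which has no other member next to it, was at 8.27 and 6.73 on ZT15 replicates 2 and 3 and at 2.77 and 5.91 on ZT3 replicates 1 and 2. On the set of 6 it was at 9.00, 9.28, 9.95, 9.08, 9.41 and 7.61 from ZT3 to ZT23, where every array but ZT23 exceeded all of the set of 4. Jon25Biii was at 11.74 and 9.43 on ZT15 replicates 2 and 3, at 8.11 and 9.68 on ZT3 replicates 1 and 2, and between 10.68 and 12.67 on the set of 6. Its neighbours Jon25Bi and Jon25Bii had smaller ranges, 2.24 and 2.53. Jon74E ran between 10.98 on ZT3 replicate 1 and 13.30 at ZT19.

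Jon99Ci, Jon99Fi and Jon66Ci had higher means on the set of 4. Jon99Ci averaged 12.53 ± 0.65 (SD, n = 4) on the set of 4 and 11.55 ± 0.79 (SD, n = 6) on the set of 6. Jon99Fi averaged 11.49 ± 1.65 and 10.95 ± 0.69, and Jon66Ci 6.67 ± 1.29 and 5.52 ± 0.73. The sets overlapped for all 3. Jon66Ci passed 6 on 4 arrays, namely all 3 of ZT15 and ZT7.

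Within the set of 4, all 12 tested Jonah genes were highest on ZT15 replicate 2, and 10 of the 12 were lowest on ZT3 replicate 1. There 3 of 9 trypsins and 1 of 10 maltases were highest on that ZT15 array; 7 of the 10 maltases were highest on ZT3 replicate 2. Over all tested probe sets, 20.7% were highest on ZT15 replicate 2 within this set. Its levels of testis genes, with 10 of 12 highest there and a median of 6.06 against 3.83 to 4.14 on the other arrays, and of other digestive genes, with 10 of 16 highest there, moved with the Jonah genes. Their part in the result was not tested.

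The 9 trypsin genes lie in 1 cluster in Release 6, in the order lambdaTry, kappaTry, zetaTry, etaTry, thetaTry, alphaTry, epsilonTry, betaTry and, after 5 other coding genes that include gammaTry and deltaTry, iotaTry. Their levels diverged. alphaTry was at 14.35 and 13.44 on ZT15 replicates 2 and 3, at 13.44 and 14.18 on ZT3 replicates 1 and 2, and at 14.22, 14.30, 13.96, 14.08, 14.46 and 13.43 on the set of 6 from ZT3 to ZT23. Its levels on the 2 sets overlapped. betaTry averaged 12.63 ± 0.76 (SD, n = 4) on the set of 4 and 13.87 ± 0.32 (SD, n = 6) on the set of 6. Probe sets of closely related trypsins could share signal, gammaTry and deltaTry included, which have no probe set of their own here.

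thetaTry was at 11.68 and 10.37 on ZT15 replicates 2 and 3 and at 11.09 and 10.29 on ZT3 replicates 1 and 2, against 8.65 to 10.10 on the set of 6. It was the trypsin whose set of 4 stood wholly above the set of 6, and epsilonTry, at 11.61 ± 0.53 (SD, n = 4) and 10.88 ± 0.67 (SD, n = 6), differed the same way with overlap. zetaTry, in the same row, differed the other way. It was at 4.57 and 4.98 on ZT15 replicates 2 and 3, at 7.49 and 7.03 on ZT3 replicates 1 and 2, and between 7.42 and 8.62 on the set of 6. Its lowest levels were thus on the ZT15 arrays of the set of 4 alone.

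lambdaTry was at 8.04 and 7.34 on the same ZT15 arrays, at 9.15 and 9.07 on the ZT3 arrays, and at 9.17 to 10.59 on the set of 6. iotaTry (5.47 and 5.06, 6.56 and 6.68, 6.40 to 7.84) and etaTry (6.21 and 5.93, 7.80 and 6.97, 6.89 to 8.15) followed in the same order of arrays. kappaTry, between lambdaTry and zetaTry in the row, had a range of 1.59. Within the set of 4, 6 of 9 trypsins were lowest on ZT15 replicate 3.

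Among the carbohydrases, neighbouring genes differed in direction. Mal-A1 to Mal-A8 lie in an unbroken row of 8 genes in Release 6. Mal-A5 was at 11.09 and 11.07 on ZT15 replicates 2 and 3 and at 11.36 and 11.05 on ZT3 replicates 1 and 2, against 10.80, 10.63, 10.81, 10.59, 10.57 and 10.92 on the set of 6 from ZT3 to ZT23. Its sets did not overlap, narrowly, and it was the 1 gene of the row that was higher on the set of 4.

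The other 7 genes of the row were lower on the set of 4, with differences of -1.28 (Mal-A8) to -3.25 (Mal-A4). Mal-A4 was at 7.41 and 4.97 on ZT15 replicates 2 and 3 and at 5.75 and 7.62 on ZT3 replicates 1 and 2. On the set of 6 it was at 10.07, 9.89, 8.98, 9.59, 10.37 and 9.23 from ZT3 to ZT23. Every array of the set of 4 thus lay below every array of the set of 6.

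Mal-A1 was at 11.88 and 10.54 on ZT15 replicates 2 and 3, at 10.34 and 12.23 on ZT3 replicates 1 and 2, and at 12.39 to 13.57 on the set of 6. Mal-A3 averaged 6.03 ± 1.10 (SD, n = 4) and 9.09 ± 0.60 (SD, n = 6), and Mal-A7 8.99 ± 1.04 and 11.33 ± 0.69. Mal-A2, Mal-A6 and Mal-A8 had smaller differences, -1.82, -1.45 and -1.28, with overlapping sets. All 7 kept a negative difference after quantile normalization and after median centring.

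The pair Mal-B1 and Mal-B2, neighbours on another arm, resembled Mal-A5. Mal-B2 was at 13.00 and 12.74 on ZT15 replicates 2 and 3 and at 12.88 and 12.95 on ZT3 replicates 1 and 2, against 12.26 to 12.82 on the set of 6. Its range was the smallest among the tested members as deposited; after median centring that of Jon65Aiii was smaller, 1.16 against 1.34. Mal-B1 averaged 8.05 ± 0.17 (SD, n = 4) and 6.92 ± 0.23 (SD, n = 6), with no overlap. The probe set shared by Amy-p and Amy-d was at 12.63 and 12.07 on ZT15 replicates 2 and 3, at 11.90 and 12.87 on ZT3 replicates 1 and 2, and at 12.44 to 13.43 on the set of 6. It cannot be assigned to either amylase gene.

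**Figure D3:**
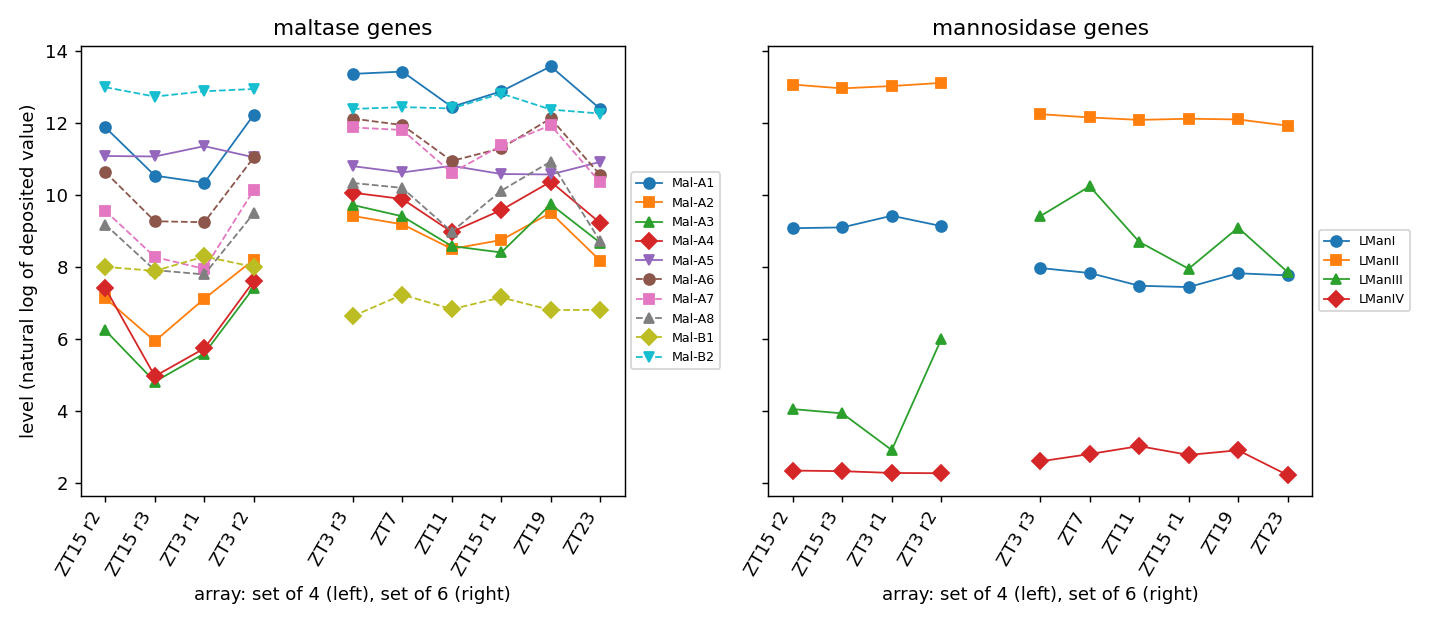
Level (natural log of the deposited value) of the 10 maltase genes (left) and 4 mannosidase genes (right) on each array, 1 line per gene joining its arrays within a set. The 7 Mal-A lines other than Mal-A5 move in parallel and lie lower on the set of 4. Mal-A5, Mal-B1, Mal-B2, LManI and LManII run flatter within each set and higher on the set of 4, by 0.42 (Mal-A5) to 1.46 (LManI).

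Mannosidases split by gene pair and within it. LManI and LManII, neighbours, were both higher on the set of 4 with no overlap: LManII averaged 13.04 ± 0.06 (SD, n = 4) and 12.11 ± 0.10 (SD, n = 6), and LManI 9.19 ± 0.16 and 7.73 ± 0.21. LManIII was at 4.06 and 3.94 on ZT15 replicates 2 and 3, at 2.92 and 6.00 on ZT3 replicates 1 and 2, and at 9.42, 10.24, 8.70, 7.96, 9.10 and 7.87 on the set of 6 from ZT3 to ZT23. Its difference, -4.65, was the widest of the 39 genes. LManIV, next to LManIII, stayed between 2.23 and 3.04 on every array.

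Of the lipases, Lip4 was steady within each set, at 10.03 ± 0.17 (SD, n = 4) on the set of 4 and 8.97 ± 0.15 (SD, n = 6) on the set of 6, with no overlap. mag was at 10.46 and 8.21 on ZT15 replicates 2 and 3, at 7.42 and 8.60 on ZT3 replicates 1 and 2, and at 6.52 to 8.14 on the set of 6. It was highest on ZT15 replicate 2, the array on which all 12 tested Jonah genes were highest within the set of 4. Lip3 was at 2.17 to 2.82 on all arrays.

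Within the set of 6, 27 of the 36 tested members were lowest at ZT23, where 23.3% of all tested probe sets were lowest. These were 10 of 12 Jonah genes, 8 of 9 trypsins, 6 of 10 maltases, 2 of 3 mannosidases and 1 of 2 lipases. At ZT19, 18 of the 36 were highest, against 11.9% of all. The Jonah genes had a median difference of -1.39 between ZT23 and the mean of the other 5 arrays, and the trypsins one of -0.92. ZT19 and ZT23 have 1 array each, so time and array cannot be told apart.

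Markers of some other tissues moved with the ZT19 or the ZT23 pattern, and those of others did not. On the set of 6, 9 of 11 accessory gland, 3 of 4 flight muscle and 2 of 3 Malpighian tubule genes were highest at ZT19. List medians there were 13.36 for accessory gland and 11.77 for flight muscle. Of the testis genes 2 of 12 were highest at ZT19 and 10 of 12 at ZT7. Fat body had 1 of 7 highest at ZT19, ovary 0 of 11, photoreceptors 0 of 5 and neurons 0 of 4. Lowest at ZT23 within the set of 6 were 11 of 12 testis, 10 of 11 accessory gland and 3 of 3 Malpighian tubule genes. Flight muscle had 1 of 4 lowest there, fat body 1 of 7, ovary 3 of 11, photoreceptors 0 of 5 and neurons 0 of 4. The median of the testis genes was 11.12 at ZT23 and 11.36 to 12.20 on the other arrays, that of the neuron genes 10.10 at ZT23 and 9.20 to 9.45 on the others. Their part in the levels at ZT19 and ZT23 was not tested.

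**Figure D4:**
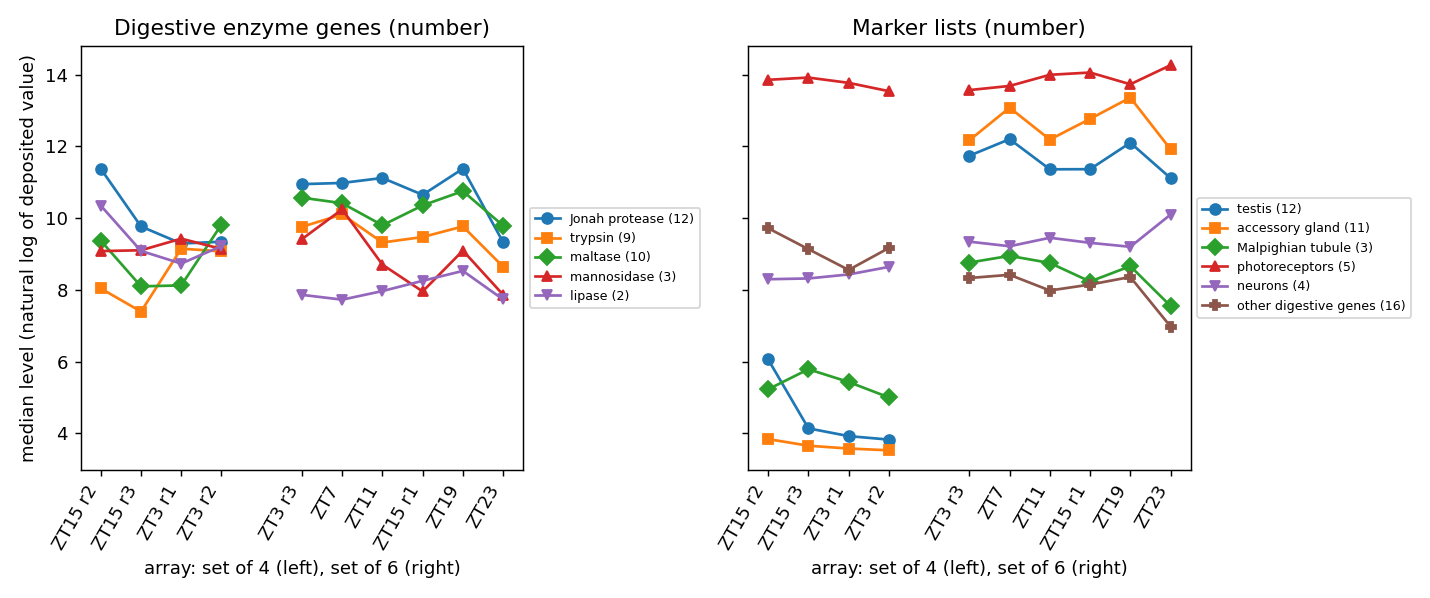
Median level (natural log of the deposited value) on each array of the tested genes of each enzyme family (left) and of marker lists (right), with the number of genes in brackets and lines joining arrays within a set. The Jonah protease median is 9.33 at ZT23 and 11.38 at ZT19, and the testis and accessory gland medians lie far lower on the set of 4 than on the set of 6.

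The times with replicates were compared by ZT15 minus ZT3. No member passed the threshold of 0.05. In limma over the 6 arrays, 0 of 36 members passed, beside 4 of 12991 probe sets (0.0308%), and 1 member had an unadjusted p under 0.05, beside 1.81% of all. With the array set as a block 0 of 36 passed, beside 0.154% of all, and 3 had an unadjusted p under 0.05, beside 9.60% of all. The median difference was 0.03 over the members and 0.01 over all, with 19 members above and 17 below 0. The clock genes per, tim and vri passed in both fits, tim being at 13.50, 13.31 and 13.40 on the ZT15 arrays and at 9.95, 9.94 and 9.96 on the ZT3 arrays. Clk, also a listed clock gene, differed by -2.37 and passed only with the block (limma adjusted p 0.17 without and 0.046 with it).

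The 5 widest differences belonged to Jon44E, zetaTry, Jon66Ci, Jon65Ai and Jon99Fi. Jon66Ci was at 6.58, 8.32 and 7.08 on ZT15 replicates 1 to 3 and at 5.64, 5.65 and 5.63 on ZT3 replicates 1 to 3. The times did not overlap, and the difference was 1.68 ± 0.40 (SE with the block; limma adjusted p 1.00 without and 0.32 with the block). The ZT3 levels of Jon66Ci lie below 6, so the size of this difference is uncertain.

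For Jon44E the ZT15 arrays stood at 9.08, 8.27 and 6.73 and the ZT3 arrays at 2.77, 5.91 and 9.00, a difference of 2.13 ± 1.10 (SE with the block; limma adjusted p 0.63 with it). It was 0.94 without ZT3 replicate 1 under the block. zetaTry was at 8.09, 4.57 and 4.98 at ZT15 and at 7.49, 7.03 and 8.29 at ZT3, a difference of -1.72 ± 0.51 (limma adjusted p 0.40 with the block). Jon65Ai differed by 1.54 ± 0.92 and Jon99Fi by 1.48 ± 0.81, with limma adjusted p of 0.68 and 0.65 under the block. Under the block and with 1 array left out, Jon65Ai differed by 0.68 (without ZT15 replicate 2) to 2.58 (without ZT15 replicate 1 or ZT3 replicate 3), and Jon99Fi by 0.65 (without ZT3 replicate 1) to 2.43 (without ZT15 replicate 1 or ZT3 replicate 3). iotaTry had the lowest adjusted p of the members, 0.20 under the block (limma), at -1.11 ± 0.21. Apart from Jon66Ci, the times overlapped for each of these genes.

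The direction of ZT15 against ZT3 depended on the array set. In the set of 4 all 12 tested Jonah genes were higher at ZT15, by a median of 1.55, while in the set of 6 they were 6 higher and 6 lower, with a median of -0.07. Pair by pair in the set of 4, 12 of 12 were higher on ZT15 replicate 2 than on either ZT3 array and on ZT15 replicate 3 than on ZT3 replicate 1, but 7 of 12 on ZT15 replicate 3 than on ZT3 replicate 2. Of the 9 trypsins, the set of 4 had 3 higher at ZT15 and the set of 6 had 2. Maltases were lower at ZT15 in 10 of 10 cases in the set of 4, by a median of -0.16, when the means of 2 arrays are compared, and in 8 of 10 in the set of 6, by -0.48. Pair by pair in the set of 4, however, 8 of 10 maltases were higher on ZT15 replicate 2 than on ZT3 replicate 1, by a median of 1.01, and 3 of 10 than on ZT3 replicate 2. On ZT15 replicate 3, 4 of 10 were higher than on ZT3 replicate 1 and 1 of 10 than on ZT3 replicate 2. Of the 36 members, 23 had the same sign in both sets. The set of 6 gives 1 array per time here, and none of these differences passed the test.

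**Figure D5:**
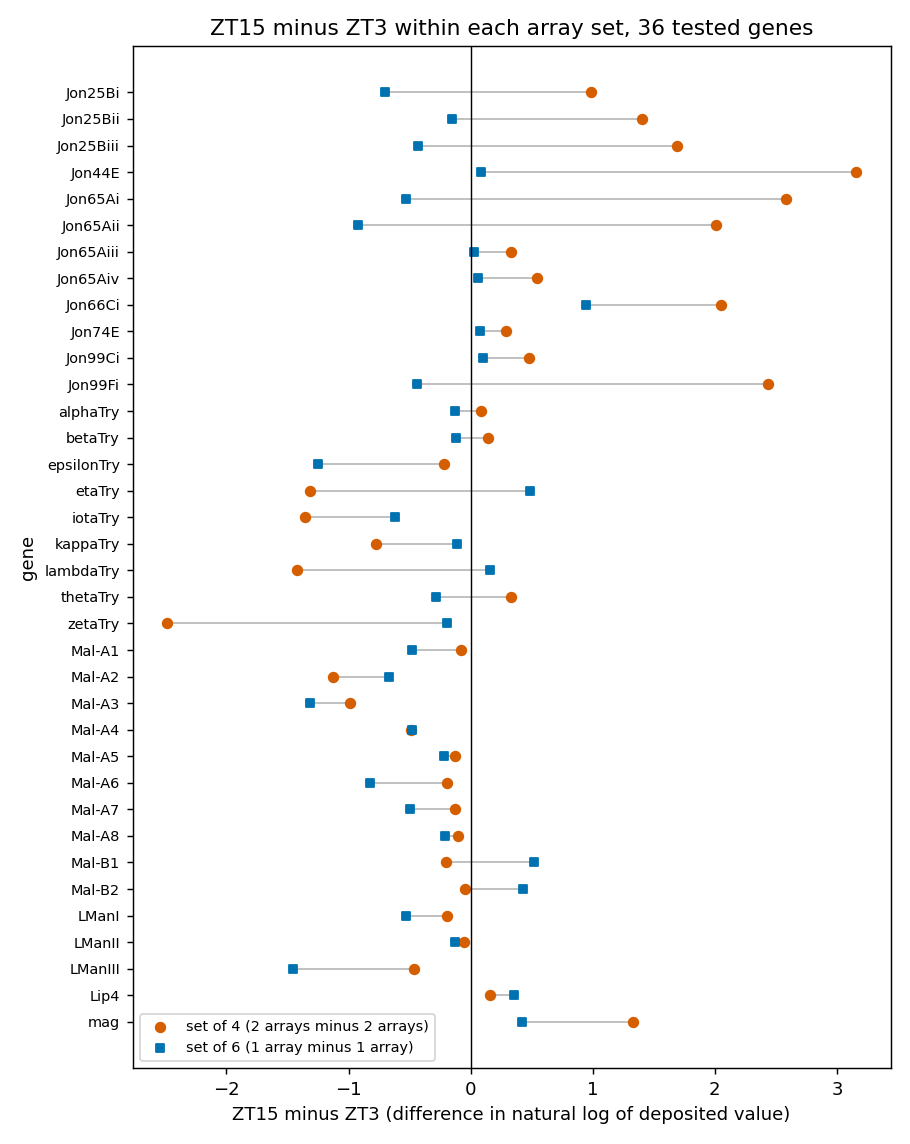
ZT15 minus ZT3 (x axis, difference in the natural log of the deposited value) for the 36 tested genes in rows, as the difference of 2-array means in the set of 4 (circles) and of single arrays in the set of 6 (squares). All 12 Jonah circles lie right of 0, up to 3.16 for Jon44E, while their squares lie on both sides.

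A 24-hour cosine fitted to all 10 arrays found no rhythmic member. In limma's F test 0 of 36 members passed, beside 0.0385% of 12991 probe sets, and 0 had an unadjusted p under 0.05, beside 1.61% of all. With the array set as a block 0 passed, beside 0.508% of all, and 1 had an unadjusted p under 0.05, beside 7.91%. That member was zetaTry, with an amplitude (fitted mean to peak) of 0.76 ± 0.25 (SE; limma adjusted p 0.63 with the block) and a fitted peak at ZT3.34. Jon44E had the widest amplitude, 1.26 ± 0.47, at limma adjusted p 0.67 with the block. The median SE of an amplitude under the block was 0.28 for members and 0.10 for all tested probe sets, so rhythms of these genes were measured less precisely. Of the 4 listed clock genes, 3 passed the rhythm test without the block and 4 with it (limma). The one that missed it without the block was tim, with an amplitude of 1.65 (limma adjusted p 0.12).

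Other digestive genes gave no call either: 0 of 14 tested passed for ZT15 against ZT3 or for the rhythm, with or without the block (limma). In these fits 0.0308% to 0.508% of all tested probe sets passed. Of 23 listed, 16 had a probe set of their own, 10 were present on every array, and 11 were higher and 5 lower on the set of 4. Among all 12991 tested probe sets, 65.0% were present on every array and 5157 were lower on the set of 4. mex1, a gene expressed in the midgut, was at 10.87 and 9.88 on ZT15 replicates 2 and 3, at 10.22 and 10.48 on ZT3 replicates 1 and 2, and at 8.34 to 10.10 on the set of 6. LysP, a lysozyme gene of the salivary gland, was at 11.44 and 11.70, at 12.47 and 12.29, and at 6.09 to 8.58 in the same order, with no overlap between the sets. yip7, a relative of the Jonah proteases, lay between 12.56 on ZT3 replicate 1 and 14.16 on ZT3 replicate 3. Within the set of 6, 13 of the 16 were lowest at ZT23, beside 23.3% of all tested probe sets.

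Of 8 regulators of digestive enzyme genes, 0 passed in any of these fits (limma), where 0.0308% to 0.508% of all tested probe sets passed. Present on every array were 7 of the 8, beside 65.0% of all tested probe sets. GATAe, a transcription factor of the midgut, was at 6.56 and 5.95 on ZT15 replicates 2 and 3, at 5.77 and 6.14 on ZT3 replicates 1 and 2, and at 6.85, 7.23, 6.62, 7.11, 7.50 and 5.45 on the set of 6 from ZT3 to ZT23. Its highest array was ZT19 and its lowest ZT23. Within the set of 6, however, 5 of the 8 regulators were highest at ZT23 and 1 at ZT19, while 1 was lowest at ZT23 and 2 at ZT19. Of all tested probe sets, 29.2% were highest at ZT23 within this set. sug, a transcription factor, and daw, a signalling ligand, take part in lowering digestive enzyme genes on sugar-rich food; they were at 9.06 to 10.20 and 9.57 to 10.56, and Hr96, a nuclear receptor that activates mag, at 8.89 to 9.39.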

How the data were processed

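Total RNA of fly heads was hybridised to 10 Affymetrix arrays. The authors deposited 1 intensity per probe set and array, made with GCRMA per the submitters' processing notes, without a version. The intensities run from 5.28 to 8527865, beyond the 65536 levels of a 16-bit scanner, so their natural logs (highest 15.96) were used as likely GCRMA log2 values. Columns were mapped to samples by accession and groups taken from titles.

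Of 18769 non-control probe sets, 13647 had 1 symbol, 402 several and 4720 none in the platform annotation. All 39 members' symbols were the same in the Release 6 gene table. The 12991 with a mean of at least 4 were tested with limma 3.58.1 in R 4.3.3 and Benjamini-Hochberg adjustment (threshold 0.05). The fits were tested on simulated data. Members and lists were chosen with earlier results of these data known. Named are all members present on every array, the 15 widest ranges, the 5 widest differences of ZT15 minus ZT3 and the highest-mean member of each family; etaTry (near the level of 6) and iotaTry (lowest adjusted p) were added after their values were seen. Lists are described by counts, with values of a few genes that were picked after their values were seen. No member passed, so none was named for passing. Sequences are not used here.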

Additional observations from a re-analysis of the deposited data

How the results depend on the processing

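No member passed for ZT15 against ZT3 in any of 23 alternatives or for the 24-hour rhythm in any of 29 (limma). Over all probe sets, the 4 for ZT15 against ZT3 became 0 after median centring, 20 with the array set block, 0 without any 1 of the 6 arrays, and 0 to 5 with the block and 1 array left out. Deviations of same-numbered arrays correlated at -0.893, 0.804 and -0.903 for replicates 1 to 3. Those of replicates 1 and 3 lie in different array sets and those of replicate 2 in the same set. These values therefore cannot show whether replicate numbers pair samples. With the replicate block 0 passed, with 106 at an unadjusted p under 0.05 (limma). The 5 rhythmic probe sets became 9 with a trended, robust variance, 3 after quantile normalization, 66 with the array set block, 2 to 4 without 1 array, and 13 to 72 with the block and 1 array left out (18, 16 and 22 without ZT3 replicates 1 to 3, 23 without ZT7, 18 without ZT11, 18, 13 and 16 without ZT15 replicates 1 to 3, 72 without ZT19 and 41 without ZT23). The count of 26 members present on every array was 30 at a level of 5, 23 at 7, 29 after quantile normalization and 26 to 28 without 1 array. The 10 that varied became 6 at a level of 5 and 1 on the set of 6 only (chosen after seeing the data), 13 at 7, 7 after quantile normalization, and 8 to 10 without 1 array. The differences of the 5 genes named for ZT15 minus ZT3 kept their direction in all 114 alternative values; that of Jon44E lay between 0.57 and 3.68 without 1 array and was lowest without ZT3 replicate 1. Without 1 array that of zetaTry lay between -2.83 and -1.07, of Jon66Ci between 1.19 and 2.06, of Jon65Ai between 0.77 and 2.27 and of Jon99Fi between 0.80 and 2.05. Under quantile normalization or median centring, 16 ranges and 16 differences between array sets moved by at least 1 SD (of the ZT3 arrays for a range, of the more variable set for a difference), and 62 of each moved less, with most of the larger moves under median centring. The causes were not tested beyond the fewer arrays that leaving 1 out brings.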
